A study of Homo sapiens with 12 samples.

Results

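NEAT1, MALAT1, TUG1, KCNQ1OT1, OIP5-AS1, MIAT, H19 and MEG3 are long noncoding RNAs, most of them known for work inside the nucleus. They were chosen by name, as the rows of the authors' deposited table that carry one of these gene names, and make up 8 of the 58381 genes in it. The table describes 786-O, an established human cell line from a clear cell carcinoma of the kidney, deficient in VHL. In 3 groups these cells had been infected with a lentivirus that encodes a short hairpin against RARRES2, the gene of the secreted protein chemerin, and are called shRARRES2_1, shRARRES2_2 and shRARRES2_3 after the hairpin. The control group, shGFP, had been infected with a lentivirus whose hairpin is aimed at GFP, so lentiviral infection and hairpin expression are shared by all 4 groups. Each group held 3 libraries, 12 in all. The sources used here give neither the time after infection nor whether replicates were separate cultures. The p-values therefore speak only of variation among these libraries, which may be technical. All results come from a single cell line.

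NEAT1 is the scaffold of the paraspeckle, a nuclear body that forms on the long form of this RNA. MALAT1 sits in nuclear speckles, beside the splicing factors stored there. TUG1 and the imprinted antisense transcript KCNQ1OT1 bind Polycomb and other chromatin complexes. OIP5-AS1, MIAT, H19 and MEG3 have been described in the nucleus and, for OIP5-AS1 and H19, in the cytoplasm as well. Total RNA was extracted here, so the values carry no information on where in the cell each RNA was.

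The 3′ ends of MALAT1 and of the long form of NEAT1 are shown because they set these RNAs apart from messenger RNAs. Both ends are made by RNase P, which cuts off a transfer-RNA-like small RNA, and not by the usual polyadenylation. A genome-encoded A-rich tract then folds back on U-rich motifs into a triple helix that protects the end. The sequences are the DNA strand of the transcript from GENCODE 29 on GRCh38, 110 bases each. Capitals mark the last 11 bases of NEAT1, AAAAAGCAAAA, which lie in its A-rich tract. They also mark the reverse complement of the last 10 of these, TTTTGCTTTT, which lies in a U-rich motif. Other U-rich letters stay in lower case. Both marked strings were searched on the transcript strand only.

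NEAT1-202, chr11:65445431-65445540, plus strand: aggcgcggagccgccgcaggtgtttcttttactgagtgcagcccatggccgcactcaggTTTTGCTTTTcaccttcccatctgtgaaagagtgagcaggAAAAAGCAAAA
MALAT1-202, chr11:65506007-65506116, plus strand: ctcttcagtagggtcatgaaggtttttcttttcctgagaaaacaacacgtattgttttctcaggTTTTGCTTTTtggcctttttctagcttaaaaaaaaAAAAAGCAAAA

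The NEAT1 stretch is the last 110 bases of a 22743-base transcript. The MALAT1 stretch ends 353 bases before the annotated end of its 8708-base transcript, and an annotated small RNA gene begins at the next base, position 65506117. The U-rich letters, followed after at most 60 bases by the A-rich letters, were found in 9 of 206694 GENCODE 29 transcripts, 0.00435%. These came from 3 genes, NEAT1, MALAT1 and the protein-coding gene RETREG3. The sources used here do not state whether polyadenylated RNA was selected. The deposited table gives 1 value per gene, so the short, polyadenylated form of NEAT1 and the long form are counted together.

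All 12 libraries had 12599424 to 23594195 reads on genes. Values are CPM, reads on a gene per 1000000 reads of the library, scaled by the trimmed mean of M-values (TMM), and 3 reads corresponded to 0.131 to 0.223 CPM. RARRES2, the target of the hairpins, averaged 39.7 ± 1.91 CPM with shRARRES2_1, 73.2 ± 19.5 CPM with shRARRES2_2 and 44.8 ± 4.72 CPM with shRARRES2_3, against 587 ± 192 CPM with shGFP (SD, n = 3 each). It fell with each hairpin, with log2 changes of -3.81, -2.97 and -3.64 on the log2(CPM + 1) scale (limma, adjusted p = 9.49e-05, 0.00165 and 1.60e-04). Without the pairs of first and second replicates described next, which leaves 1 library of shRARRES2_3, the call with that hairpin was lost (adjusted p = 0.103). The 9 markers of renal carcinoma cells summed to 1039 to 2907 CPM, and 0 to 2 of them were at 0 in a library. PAX8, a marker of renal cells, ranged over 239 to 594 CPM, and VIM, a mesenchymal filament gene of these cells, was lowest in shRARRES2_3 replicate 2 (262 CPM) and shGFP replicate 2 (472 CPM) and stood at 666 to 2105 CPM in the other 10 libraries. VIM alone gave 2105 of the summed 2817.5 CPM in shRARRES2_1 replicate 1 and 262 of 1039 CPM in shRARRES2_3 replicate 2. EPAS1, on the same list, averaged 255 ± 20.4, 86.1 ± 11.8 and 350 ± 80.1 CPM with the hairpins and 641 ± 319 CPM with shGFP (SD, n = 3 each). The 6 leukocyte markers summed to 0.773 to 2.87 CPM and the 5 endothelial markers to 1.31 to 6.88 CPM over the 12 libraries. The 7 fibroblast markers summed to 4.53 to 97.0 CPM, highest in shGFP replicate 2 and next in shRARRES2_2 replicate 1 (84.3 CPM). Of the 12 keratinocyte markers, 2 to 8 were at 0 in a shGFP library and 2 to 5 in a hairpin library. They summed to 8.24 to 36.4 CPM in the hairpin libraries and to 10.8, 477 and 30.3 CPM in shGFP replicates 1, 2 and 3.

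In 3 cases, libraries lay closer to a library of another group than to their own replicates. Replicate 1 of shRARRES2_1 and replicate 1 of shRARRES2_3 correlated with r = 0.981 over log2 values, replicate 2 of shRARRES2_3 and replicate 2 of shGFP with r = 0.982, and replicate 3 of shRARRES2_2 and replicate 3 of shRARRES2_3 with r = 0.9754. Replicates 2 and 3 of shRARRES2_1 were the most alike (r = 0.997), and their reads differed by more than sampling noise, with a chi-square of 2.95 per gene, where the next most similar pair had 47. These correlations are over genes and share depth and scaling. These pairs are called the pair of first replicates, the pair of second replicates and the pair of replicates 3, and "without either pair" means without those of first and second replicates. The fits without them are given beside the main results of the 5 more abundant RNAs. In the fit without the pair of replicates 3, 0 of the 7 RNAs tested were called.

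Among the 8 RNAs, MALAT1 and NEAT1 gave most of the reads. Per kilobase of exon, MALAT1 stood at 304 ± 32.1 CPM in shGFP cells, NEAT1 at 111 ± 37.3 CPM, OIP5-AS1 at 12.3 ± 2.05 CPM and TUG1 at 9.81 ± 0.774 CPM (SD, n = 3). KCNQ1OT1, spread over 91.667 kb, stood at 0.392 ± 0.136 CPM per kilobase, H19 at 0.252 ± 0.0992 CPM, MIAT at 0.0669 ± 0.0414 CPM and MEG3 at 0.0163 ± 0.0266 CPM. The shGFP libraries of OIP5-AS1 and TUG1 overlapped on this per-kilobase scale, as did those of KCNQ1OT1 and H19 and those of MIAT and MEG3. In the pair of first replicates the order was different. NEAT1 had 1.31 CPM per kilobase in shRARRES2_1 replicate 1, below OIP5-AS1 at 3.21 CPM and TUG1 at 2.90 CPM. It had 1.37 CPM per kilobase in shRARRES2_3 replicate 1, below OIP5-AS1 at 9.49 CPM and TUG1 at 2.42 CPM. The values of NEAT1 are per kilobase of its whole 22.767 kb, with the short and long forms counted together. If most reads came from the short form, its value per kilobase would be higher. The place of NEAT1 in these orders is therefore uncertain.

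**Figure D1:**
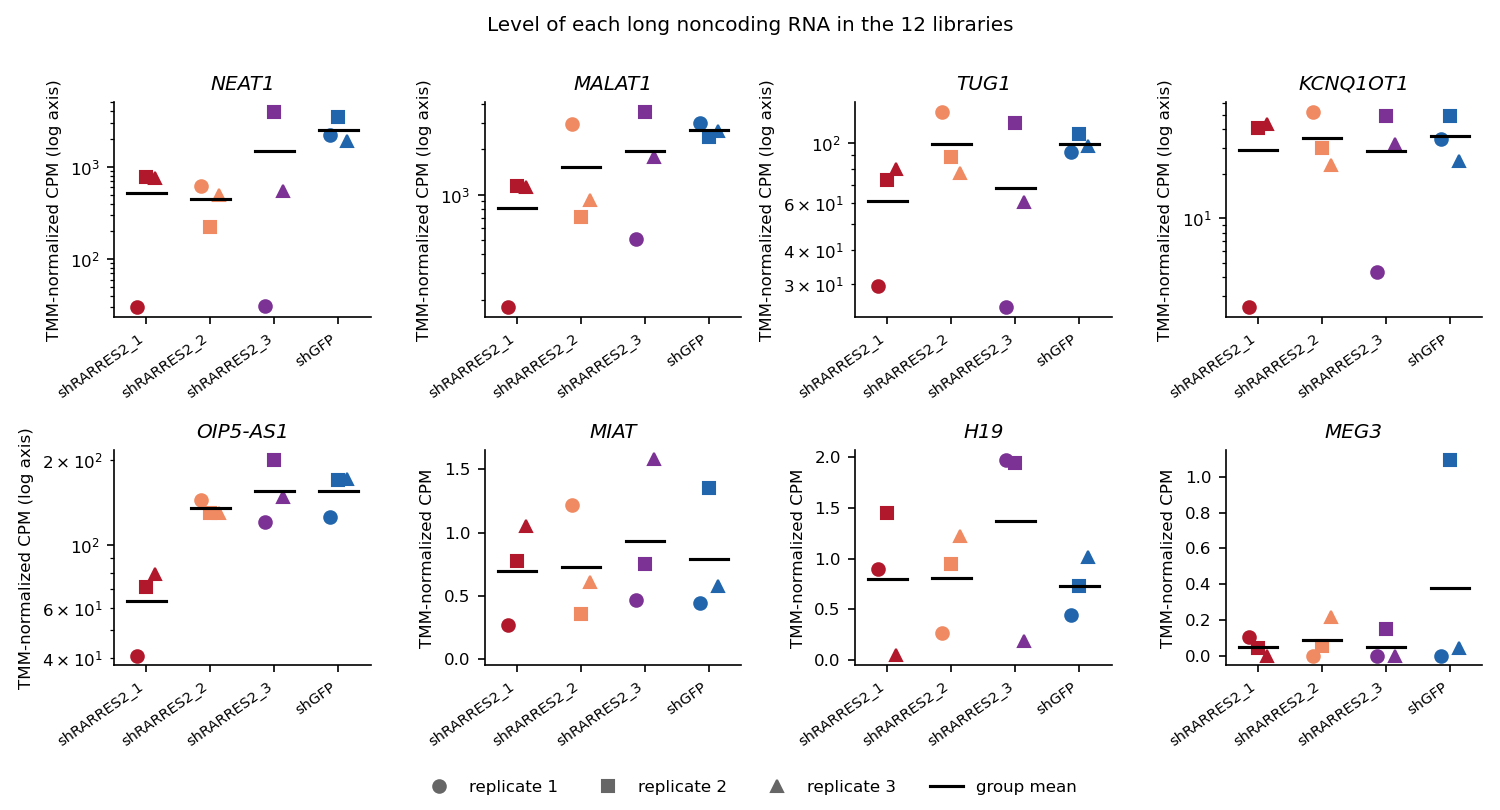
TMM-normalized CPM of each RNA in the 12 libraries, by group; symbols are single libraries and bars group means, and the first 5 panels have a log axis. NEAT1, MALAT1, TUG1 and KCNQ1OT1 had their 2 lowest values in replicate 1 of shRARRES2_1 and replicate 1 of shRARRES2_3.

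Of the 8 RNAs, 7 reached 1 CPM in at least 3 libraries and were tested, and MEG3 did not. With limma and adjustment over all 15236 genes tested, 0 of the 7 passed an adjusted p of 0.05 with any hairpin, for the mean of the 3 hairpins or among the hairpins. The share of all genes that passed was 0.171% with shRARRES2_1 (0.0722% in the lower direction), 0.0459% with shRARRES2_2 (0.0394% in the lower direction), 0.00656% with shRARRES2_3, 0.00656% for the mean of the hairpins and 0.249% among the hairpins. At an unadjusted p under 0.05 there were MALAT1 and OIP5-AS1 with shRARRES2_1, NEAT1 for the mean and OIP5-AS1 among the hairpins. edgeR on the recovered reads called 0 of 7 in each of these 5 comparisons, with an unadjusted p under 0.05 for 2 with shRARRES2_1 and 1 among the hairpins. DESeq2 called OIP5-AS1 with shRARRES2_1, where it called 3.26% of all genes, and among the hairpins, where it called 3.87%; it called none of the 7 in the other 3 comparisons. All log2 changes below are hairpin minus shGFP on the log2(CPM + 1) scale, which understates those of low genes. In bulk RNA, fewer cells expressing an RNA and less of it per cell cannot be told apart.

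Without overlap, 4 of the 7 RNAs were below every shGFP library with shRARRES2_1, beside 15.0% of all genes tested: NEAT1, MALAT1, TUG1 and OIP5-AS1. With shRARRES2_2 this held for NEAT1, beside 11.7% of all genes, and with shRARRES2_3 for 0 of 7, beside 3.63%. Taken over all 9 hairpin libraries, 0 of 7 lay below every shGFP library, beside 0.729% of all genes. With each hairpin, 0 of 7 lay above every shGFP library, beside 17.0%, 16.4% and 3.03% of all genes with shRARRES2_1, shRARRES2_2 and shRARRES2_3. The 3 comparisons share their shGFP libraries.

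**Figure D2:**
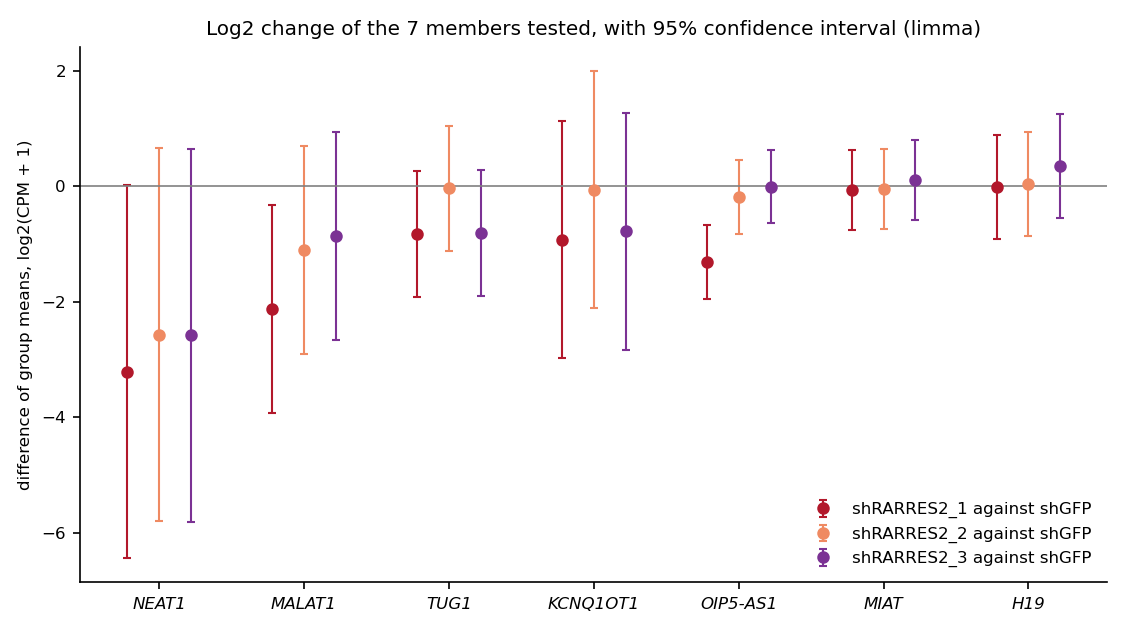
Log2 change of each of the 7 RNAs tested with each hairpin against shGFP (points) with its 95% confidence interval (bars), from limma. The intervals of NEAT1 cross 0 with all 3 hairpins, and those of MALAT1 and OIP5-AS1 with shRARRES2_1 do not; no adjusted p was under 0.05.

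NEAT1 (ENSG00000245532.8, chromosome 11, positions 65422774 to 65445540, plus strand) is an intergenic noncoding gene of 22.767 kb. It had 29.9, 779.9 and 765 CPM in shRARRES2_1 cells, 621, 225 and 495 CPM in shRARRES2_2 cells and 31.1, 3931 and 543 CPM in shRARRES2_3 cells, against 2227, 3494 and 1883 CPM in shGFP cells. Of the 9 hairpin libraries, 8 lay below every shGFP library, and shRARRES2_3 replicate 2 lay above them all. The highest and lowest of the 12 values differed 131-fold, the widest span among the RNAs with reads in every library.

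Group means of NEAT1 were 525 ± 429, 447 ± 202 and 1502 ± 2119.6 CPM with shRARRES2_1, shRARRES2_2 and shRARRES2_3 and 2535 ± 848 CPM with shGFP (SD, n = 3 each). The log2 change was -3.21 with shRARRES2_1 (95% confidence interval -6.44 to 0.02, adjusted p = 0.301), -2.57 with shRARRES2_2 (adjusted p = 0.448) and -2.58 with shRARRES2_3 (adjusted p = 0.876). For the mean of the hairpins it was -2.79 (interval -5.42 to -0.15), with an unadjusted p of 0.0398 and an adjusted p of 0.387. Among the hairpins the adjusted p was 0.967.

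The log2 change of NEAT1 for the mean of the hairpins was -1.66 without the pair of first replicates, -3.07 without the pair of second replicates and -1.88 without either pair (adjusted p = 0.379, 0.251 and 0.0777). With shRARRES2_2 and without either pair it was -2.31 with an adjusted p of 0.0281, in a fit where 4.76% of all genes passed. In that fit the shRARRES2_2 group kept its 3 libraries, shRARRES2_1 kept the 2 that are most alike, shGFP kept 2 and shRARRES2_3 kept 1. With shRARRES2_1 the value was -1.66 without the pair of first replicates (adjusted p = 0.314), and also without shRARRES2_1 replicate 1 alone (adjusted p = 0.687), -2.95 without the pair of second replicates and -1.41 without either pair. With shRARRES2_3 it was -0.74 without the pair of first replicates, -3.95 without the pair of second replicates and -1.91 without either pair.

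MALAT1 (ENSG00000251562.8, chromosome 11, positions 65497688 to 65506516, plus strand) is an 8.829 kb intergenic noncoding gene that begins 52.148 kb after NEAT1. It had 177, 1145 and 1122 CPM in shRARRES2_1 cells, 2936, 711 and 917 CPM in shRARRES2_2 cells and 508, 3546 and 1769.7 CPM in shRARRES2_3 cells, against 2979, 2416 and 2645 CPM in shGFP cells. The shGFP libraries were close together and the hairpin libraries were not. Of the 9 hairpin libraries, 7 lay below every shGFP library, shRARRES2_2 replicate 1 lay among them and shRARRES2_3 replicate 2 lay above them.

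MALAT1 averaged 815 ± 552, 1521 ± 1229 and 1941 ± 1527 CPM with shRARRES2_1, shRARRES2_2 and shRARRES2_3 and 2680.1 ± 283 CPM with shGFP (SD, n = 3 each). The log2 change was -2.12 with shRARRES2_1 (95% confidence interval -3.92 to -0.33, unadjusted p = 0.0241, adjusted p = 0.256). It was -1.10 with shRARRES2_2 and -0.86 with shRARRES2_3 (adjusted p = 0.544 and 0.876), and -1.36 for the mean of the hairpins (adjusted p = 0.410). Without the pair of first replicates the value for shRARRES2_1 was -1.24 (adjusted p = 0.336) and that for shRARRES2_3 was -0.09. The value for shRARRES2_3 was -1.56 without the pair of second replicates (adjusted p = 0.430), and without either pair it was -0.67. Those for shRARRES2_1 were -2.20 and -1.31 in the same fits.

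In shRARRES2_2 replicate 1 MALAT1 was at 2936 CPM, within the shGFP range, and NEAT1 at 621 CPM, below it. NEAT1 made up 4.51% to 56.0% of the reads on the 8 RNAs across libraries and MALAT1 38.7% to 75.5%. FRMD8, a protein-coding gene 9.249 kb before NEAT1, ranged over 22.9 to 60.2 CPM and was not called with any hairpin (adjusted p from 0.314 to 0.876). The 7 genes annotated inside NEAT1 and MALAT1 were at 0 in all 12 libraries, and so were 31 of the 35 genes annotated as overlapping any of the 8 RNAs.

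TUG1 (ENSG00000253352.9, chromosome 22, positions 30969245 to 30979395, plus strand) is a 10.151 kb noncoding gene that shares a promoter region with the protein-coding gene MORC2, 0.947 kb away on the other strand. TUG1 had 29.5, 73.2 and 79.9 CPM in shRARRES2_1 cells, 131, 88.7 and 77.7 CPM in shRARRES2_2 cells and 24.5, 119 and 60.6 CPM in shRARRES2_3 cells, against 92.8, 108 and 97.8 CPM in shGFP cells. Of the 9 hairpin libraries, 7 lay below every shGFP library and 2 above. MORC2, an ATPase of heterochromatin silencing, ranged over 33.5 to 60.02 CPM and was not called with any hairpin.

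The log2 change of TUG1 was -0.82 with shRARRES2_1 (95% confidence interval -1.91 to 0.27, adjusted p = 0.389), -0.04 with shRARRES2_2 (interval -1.13 to 1.05, adjusted p = 0.9746) and -0.81 with shRARRES2_3 (interval -1.90 to 0.28, adjusted p = 0.876). For the mean of the hairpins it was -0.56 (adjusted p = 0.513). Without the pair of first replicates it was -0.37, -0.04 and -0.22 with shRARRES2_1, shRARRES2_2 and shRARRES2_3. With shRARRES2_3 it was -1.28 without the pair of second replicates (adjusted p = 0.353) and -0.64 without either pair. With shRARRES2_2 the sign turned, to 0.02 without the pair of second replicates and 0.11 without the pair of replicates 3. Over the 10 libraries outside the pair of first replicates TUG1 spanned 60.6 to 131 CPM, a 2.15-fold range, against a 5.33-fold range over all 12.

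KCNQ1OT1 (ENSG00000269821.1, chromosome 11, positions 2608328 to 2699994, minus strand) runs antisense within the potassium channel gene KCNQ1 and on the paternal chromosome silences the imprinted genes around it. It had 2.496, 40.8 and 43.4 CPM in shRARRES2_1 cells, 52.5, 29.8 and 22.9 CPM in shRARRES2_2 cells and 4.35, 49.5 and 31.7 CPM in shRARRES2_3 cells, against 34.3, 49.2 and 24.3 CPM in shGFP cells. The lowest values were those of replicate 1 of shRARRES2_1, with 47 reads, and replicate 1 of shRARRES2_3 with 75 reads. The other 10 libraries lay between 22.9 and 52.5 CPM, and their groups overlapped.

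The log2 change of KCNQ1OT1 was -0.93 with shRARRES2_1, -0.06 with shRARRES2_2 and -0.78 with shRARRES2_3 (adjusted p = 0.585, 0.9798 and 0.879). For the mean of the hairpins it was -0.59, with a 95% confidence interval of -2.26 to 1.08. Without the pair of first replicates the direction turned, and the value was 0.28 with shRARRES2_1, 0.19 with shRARRES2_3 and 0.14 for the mean. With the pair of second replicates left out it was -0.68, 0.19 and -1.18 with shRARRES2_1, shRARRES2_2 and shRARRES2_3, and with shRARRES2_2 it was 0.19 without the pair of replicates 3 as well. KCNQ1 itself stood at 0.0444 to 0.370 CPM and was not tested.

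CDKN1C, an inhibitor of the cell cycle that KCNQ1OT1 silences in cis, lies 183.219 kb away. CDKN1C had 8.76, 10.0 and 12.7 CPM in shRARRES2_1 cells, 44.2, 8.74 and 11.99 CPM in shRARRES2_2 cells and 16.7, 53.0 and 28.7 CPM in shRARRES2_3 cells, against 43.3, 32.2 and 80.3 CPM in shGFP cells. The shRARRES2_1 libraries lay below all shGFP libraries, as in 15.0% of all genes tested, and the other 2 hairpin groups overlapped shGFP. CDKN1C was also picked from its list for a low p for the mean of the hairpins, so the separation adds no support. Its log2 change was -2.11, -1.46 and -0.69 with shRARRES2_1, shRARRES2_2 and shRARRES2_3 (adjusted p = 0.154, 0.301 and 0.876). In shRARRES2_1 replicate 1 and shRARRES2_3 replicate 1, where KCNQ1OT1 was lowest, CDKN1C stood at 8.76 and 16.7 CPM. In replicates 2 and 3 of shRARRES2_1, with KCNQ1OT1 at 40.8 and 43.4 CPM, CDKN1C stood at 10.0 and 12.7 CPM. Whether KCNQ1OT1 bears on the level of CDKN1C here was not tested.

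OIP5-AS1 (ENSG00000247556.6, chromosome 15, positions 41283990 to 41309737, plus strand) is also known as a sponge for microRNAs and proteins in the cytoplasm. OIP5-AS1 had 40.7, 71.3 and 79.2 CPM in shRARRES2_1 cells, 144.7, 130.2 and 129.7 CPM in shRARRES2_2 cells and 120.3, 199.8 and 148 CPM in shRARRES2_3 cells, against 125, 169 and 171 CPM in shGFP cells. All 3 shRARRES2_1 libraries lay below the other 9. The shRARRES2_2 and shRARRES2_3 libraries overlapped shGFP.

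OIP5-AS1 averaged 63.7 ± 20.3, 135 ± 8.53 and 156 ± 40.4 CPM with shRARRES2_1, shRARRES2_2 and shRARRES2_3 and 155 ± 26.0 CPM with shGFP (SD, n = 3 each). With shRARRES2_1 the log2 change was -1.31 (SE 0.29, 95% confidence interval -1.95 to -0.68, unadjusted p = 6.88e-04). The adjusted p was 0.104, above the threshold. With shRARRES2_2 it was -0.19 (interval -0.83 to 0.45) and with shRARRES2_3 -0.01 (interval -0.65 to 0.62). The moderated F-test among the 3 hairpins gave an unadjusted p of 0.00143 and an adjusted p of 0.135.

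With shRARRES2_1 OIP5-AS1 passed in limma without shRARRES2_3 replicate 2 (adjusted p = 0.0447, in a fit that called 1.30% of all genes) and in DESeq2 (log2 change -1.32, adjusted p = 0.00380). Among the hairpins it passed in DESeq2 (adjusted p = 0.00898). Without the pair of first replicates the log2 change with shRARRES2_1 was -1.02 (adjusted p = 0.112), without the pair of second replicates -1.24 (adjusted p = 0.124), without either pair -0.95 (adjusted p = 0.0692) and -1.31 without the pair of replicates 3 (adjusted p = 0.242). The fit without the pair of first replicates rests on the 2 shRARRES2_1 libraries that are most alike.

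OIP5, a gene of the mitotic centromere, overlaps the end of OIP5-AS1 on the opposite strand. It had 12.4, 7.90 and 5.11 CPM in shRARRES2_1 cells, 5.71, 17.0 and 11.7 CPM in shRARRES2_2 cells and 11.5, 2.05 and 8.94 CPM in shRARRES2_3 cells, against 5.79, 2.34 and 7.36 CPM in shGFP cells. Its groups overlapped, and it was not called with any hairpin (adjusted p = 0.528, 0.441 and 0.905). The sources used here do not say whether counting used strand, so reads of the overlapping stretch cannot be told apart.

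MIAT, H19 and MEG3 were close to the limit of detection. MIAT, described in retina and heart, had 0.266 to 1.58 CPM (5 to 34 reads) in hairpin cells and 0.445 to 1.35 CPM in shGFP cells. H19, a fetal RNA expressed from the maternal chromosome, had 0.0477 to 1.97 CPM (1 to 39 reads) in hairpin cells and 0.445 to 1.02 CPM in shGFP cells. MEG3, a maternally expressed RNA lost in many tumours, had 0 to 0.218 CPM in hairpin cells and 0, 1.09 and 0.0444 CPM in shGFP cells. All 3 RNAs overlapped between the groups.

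The log2 changes of MIAT were -0.07, -0.05 and 0.10 with shRARRES2_1, shRARRES2_2 and shRARRES2_3 and those of H19 were -0.01, 0.04 and 0.35, with adjusted p from 0.876 to 0.988. The change of H19 with shRARRES2_2 turned to -0.00196 when every library was scaled to a common total. MEG3 had 21 of its 22 shGFP reads in shGFP replicate 2. That library had the highest keratinocyte marker sum, 477 CPM, and the highest fibroblast marker sum, 97.0 CPM. MEG3 was at 0 in 5 libraries, in which a count of 0 allows up to 3 reads, at most 0.223 CPM.

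The share of reads on all long noncoding RNA genes was 0.493%, 1.24% and 1.25% in shRARRES2_1 libraries, 1.20%, 0.852% and 1.05% in shRARRES2_2 libraries and 0.503%, 2.12% and 1.09% in shRARRES2_3 libraries, against 1.64%, 1.83% and 1.48% in shGFP libraries. Of the 9 hairpin libraries, 8 lay below every shGFP library. The 95% Wilson interval of the lowest share was 0.490% to 0.496%, which covers counting error only, since reads without molecular identifiers are not independent molecules.

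The hairpin mean of 1.09% ± 0.485 (SD, n = 9) was 0.562 percentage points below the shGFP mean of 1.65% ± 0.175 (SD, n = 3). A two-sided exact permutation test over the libraries gave p = 0.109, where the smallest p this design allows is 0.00909. Without shRARRES2_3 replicate 2 the difference was -0.690 points with an exact p = 0.0121, the smallest that 8 against 3 libraries allow. Without the pair of second replicates it was -0.600 points with an exact p = 0.0444, again the smallest possible. Both comparisons leave out shRARRES2_3 replicate 2, the only hairpin library not below every shGFP library. Their p-values were thus fixed by that choice and add no support. With any other single library left out the exact p was 0.109 to 0.291. Without the pair of first replicates the difference was -0.393 points with an exact p = 0.2, and -0.556 points without the pair of replicates 3 (exact p = 0.167). For single hairpins the exact p was 0.1, 0.1 and 0.5 with shRARRES2_1, shRARRES2_2 and shRARRES2_3, where 3 against 3 libraries cannot go below 0.1.

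The 8 RNAs alone took 0.0225%, 0.238% and 0.237% of reads in shRARRES2_1 libraries, 0.371%, 0.113% and 0.166% in shRARRES2_2 libraries and 0.0544%, 0.904% and 0.261% in shRARRES2_3 libraries, against 0.584%, 0.672% and 0.486% in shGFP libraries. They made up 4.55% to 42.7% of all long noncoding reads in the hairpin libraries and 32.8% to 36.7% in the shGFP libraries. Without them, the remaining long noncoding genes held 0.826% ± 0.249 of reads in hairpin libraries (SD, n = 9) and 1.07% ± 0.0823 in shGFP libraries (SD, n = 3), a difference of -0.244 points (exact permutation p = 0.127).

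**Figure D3:**
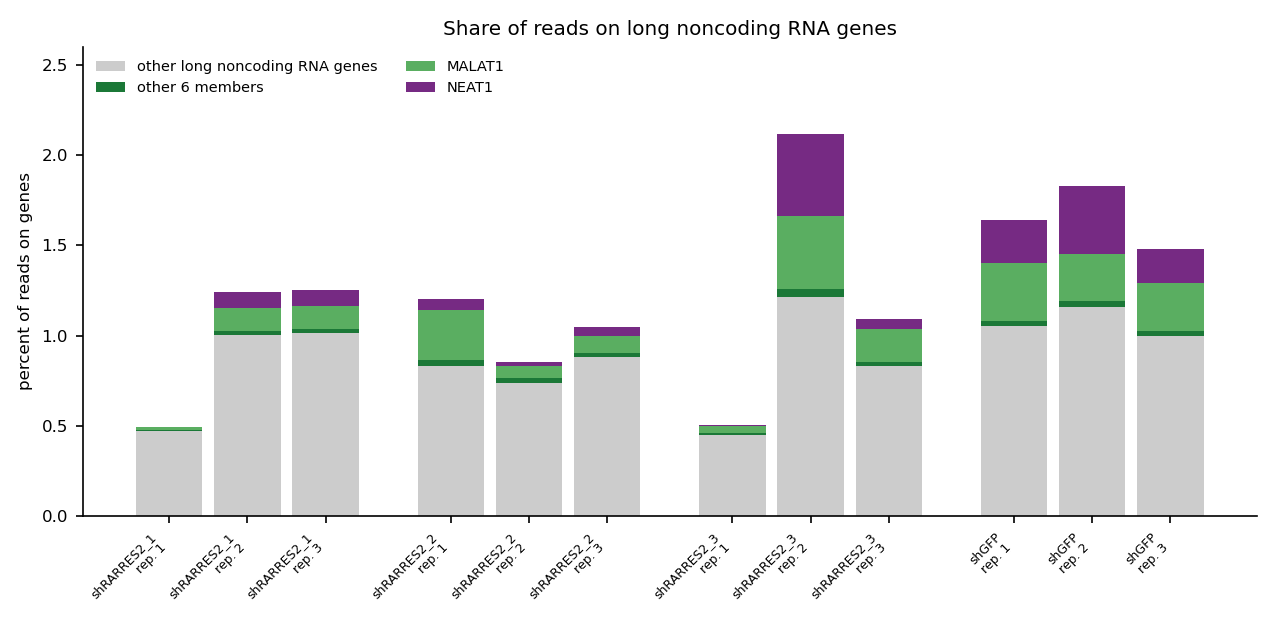
Percent of each library's reads on long noncoding RNA genes, stacked as other long noncoding genes, the 6 less abundant members, MALAT1 and NEAT1. Replicate 1 of shRARRES2_1 (0.493%) and replicate 1 of shRARRES2_3 (0.503%) were lowest and replicate 2 of shRARRES2_3 (2.12%) highest.

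Of 1654 long noncoding RNA genes tested, 60.7%, 57.1% and 71.7% had a log2 change below 0 with shRARRES2_1, shRARRES2_2 and shRARRES2_3, beside 47.8%, 44.8% and 49.7% of all genes tested. Their median log2 change was -0.18, -0.11 and -0.21, where that of all genes was 0.04, 0.07 and 0.00. With shRARRES2_1, 2 of them were called higher and 2 lower, beside 15 and 11 of all 15236 genes tested (0.171%). With shRARRES2_2 and shRARRES2_3 0 passed, beside 0.0459% and 0.00656% of all genes. The shift of the class was not tested.

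The low values in the pair of first replicates were shared widely. Of the 7 RNAs tested, 4 (NEAT1, MALAT1, TUG1 and KCNQ1OT1) had both of these libraries below the other 10, as did 18.5% of all genes tested. Among long noncoding genes the share was 35.3% (584 of 1654) and among protein-coding genes 14.7% (1868 of 12734). In the opposite direction, 0 of the 7, 16.3% of all genes tested, 2.78% of long noncoding genes and 18.8% of protein-coding genes had both libraries above the other 10. NEAT1 was also the 1 of the 7 with its 2 highest values in the pair of second replicates, a pattern seen in 13.3% of all genes and 21.0% of long noncoding genes.

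Values in the same libraries also varied with gene length. Tested protein-coding genes were split into 4 equal classes by exon length, and each gene's log2 value was set against its own median over the 12 libraries. The shortest class (366 to 3379 bases) stood at 0.35 in shRARRES2_1 replicate 1 and 0.31 in shRARRES2_3 replicate 1, and at -0.27 to 0.08 in the other 10 libraries. The longest class (from 7641 bases) stood at -0.30 and -0.22 in those 2 libraries, and at -0.04 to 0.12 in the others. Over 12734 genes the Spearman correlation of this difference with length was -0.338 and -0.314 in the pair and -0.101 to 0.186 elsewhere, given as a description over genes that share each library. The exon lengths of the 5 more abundant members lie in the range of the longest class, at 8829 bases for MALAT1 to 91667 bases for KCNQ1OT1. Whether length or RNA quality has a part in the members' values was not tested. Replicate 1 of shRARRES2_1 and of shRARRES2_3 also had the lowest TMM scaling factors, 0.798 and 0.788.

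**Figure D4:**
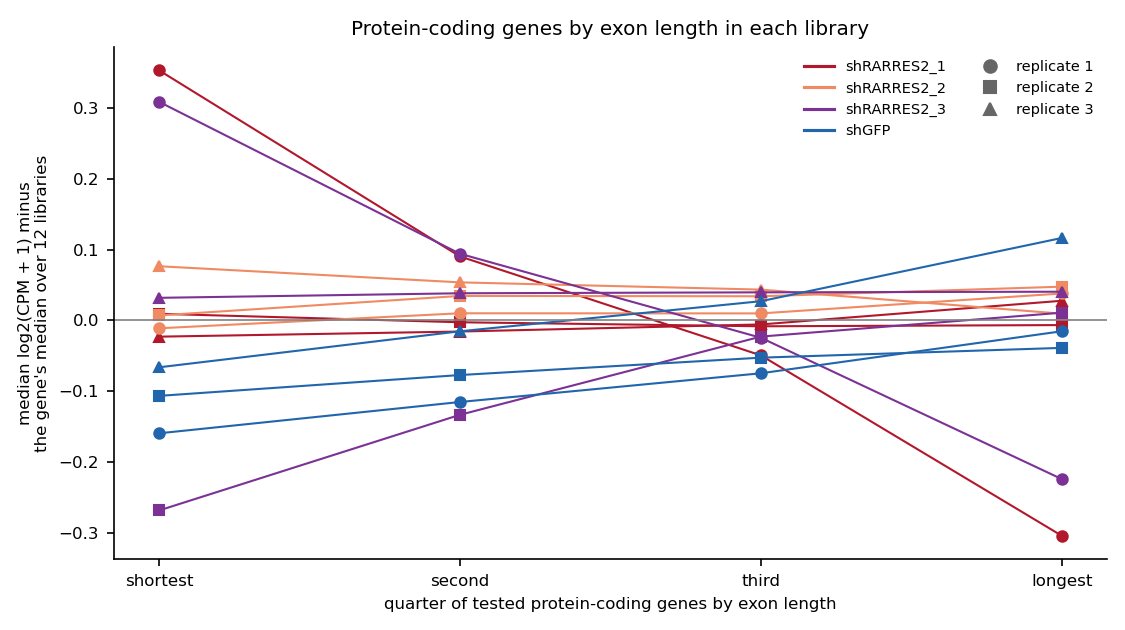
Median over tested protein-coding genes of log2(CPM + 1) minus the gene's own median, by class of exon length, 1 line per library. Replicate 1 of shRARRES2_1 and of shRARRES2_3 fall from 0.35 and 0.31 in the shortest class to -0.30 and -0.22 in the longest.

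Of 20 paraspeckle proteins tested, 0 were called with any hairpin, and the median log2 change was 0.18, 0.29 and 0.30 with shRARRES2_1, shRARRES2_2 and shRARRES2_3. NONO, which binds NEAT1 and is needed for paraspeckles, had 967 ± 434, 1011 ± 254 and 792 ± 474 CPM with the hairpins and 551 ± 56.9 CPM with shGFP (SD, n = 3 each; adjusted p from 0.388 to 0.882). NONO was highest in the pair of first replicates, at 1468.5 and 1320.7 CPM. In shRARRES2_3 replicate 2 it had 405 CPM, below the shGFP libraries at 495 to 609 CPM. The remaining hairpin libraries stood at 651 to 1304 CPM. SMARCA4, an ATPase of chromatin remodelling, had log2 changes of 0.90, 0.83 and 0.83 with adjusted p of 0.265, 0.351 and 0.876.

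Of 22 nuclear speckle proteins, 0 were called, and the median was -0.34, 0.14 and 0.02. SRSF1, a splicing factor that binds MALAT1, averaged 131 ± 12.5, 193 ± 67.0 and 136 ± 33.1 CPM with the hairpins and 74.5 ± 8.502 CPM with shGFP (SD, n = 3 each). Its 9 hairpin libraries, at 98.5 to 270.4 CPM, lay above the shGFP libraries at 65.4 to 82.2 CPM, with adjusted p of 0.239, 0.126 and 0.876. Such a lack of overlap was seen in 0.788% of all genes tested. SRSF1 was picked from its list for a low p for the mean of the hairpins, so the separation adds no support. SON and SRRM2, the core proteins of the speckle, had log2 changes between -0.69 and 0.23.

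RNase P and the RNase Z enzymes cut the 3′ ends shown above and the small RNAs released from them. Of 13 such genes tested 0 were called. With each hairpin 12 of 13 had a log2 change above 0 and 1 below, with medians of 0.84, 0.54 and 0.46. Of all genes tested, 47.8%, 44.8% and 49.7% lay below 0 with shRARRES2_1, shRARRES2_2 and shRARRES2_3. The 3 comparisons share their shGFP libraries. Whether these genes bear on the levels of MALAT1 or NEAT1 was not tested. POP1, the largest protein of RNase P, had 78.1, 50.7 and 47.5 CPM in shRARRES2_1 cells, 61.04, 109 and 49.5 CPM in shRARRES2_2 cells and 55.6, 21.1 and 40.1 CPM in shRARRES2_3 cells, against 19.7, 20.7 and 16.4 CPM in shGFP cells. All hairpin libraries lay above the shGFP libraries, as in 0.788% of all genes tested, with log2 changes of 1.56, 1.82 and 0.91 (adjusted p = 0.129, 0.117 and 0.876). POP1 too was picked from its list for a low p for the mean of the hairpins, so the separation adds no support. The 13 genes summed to 684 and 609 CPM in the pair of first replicates and to 233 to 474 CPM in the other hairpin libraries, against 213 to 269 CPM in shGFP libraries.

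The nuclear exosome, which degrades noncoding transcripts, gave 0 calls among 18 genes tested, with medians of 0.02, 0.23 and 0.16. Polycomb repressive complex 2 gave 0 calls among 11 genes, with medians of -0.02, 0.31 and 0.27. Of 12 imprinted neighbours of H19, KCNQ1OT1 and MEG3, 6 were tested and 0 called. Of 9 genes listed as regulators of NEAT1, 1 was called lower, with shRARRES2_2, beside 0.0394% of all genes tested. It was EPAS1, the hypoxia factor HIF-2α that drives this tumour type. EPAS1 fell with shRARRES2_2, to 86.1 ± 11.8 CPM, against 641 ± 319 CPM with shGFP (SD, n = 3; log2 change -2.78, adjusted p = 0.0107). With shRARRES2_1 and shRARRES2_3 its log2 change was -1.22 and -0.79 (adjusted p = 0.154 and 0.876). Without shRARRES2_2 replicate 1 or replicate 2 the call with shRARRES2_2 was lost (adjusted p up to 0.0939), and without the pair of replicates 3 it was lost with an adjusted p of 0.0530.

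Of 17 host genes of small nucleolar RNAs tested, 3 were called lower with shRARRES2_1, beside 0.0722% of all genes tested. The list median was -0.80. With shRARRES2_2 and shRARRES2_3 0 passed and the medians were -0.31 and -0.34. GAS5, an RNA that accumulates in growth arrest, had 112, 64.9 and 61.7 CPM in shRARRES2_1 cells, against 242, 266 and 441 CPM in shGFP cells, a log2 change of -1.98 (adjusted p = 0.0373). ZFAS1 had 8.35 ± 1.21 CPM in shRARRES2_1 cells and 36.9 ± 12.2 CPM in shGFP cells (SD, n = 3 each; log2 change -1.98, adjusted p = 0.0373). C6orf48 had 98.8 ± 14.2 and 468 ± 215 CPM in the same groups (log2 change -2.15, adjusted p = 0.0397). With shRARRES2_2 and shRARRES2_3, in that order, GAS5 had log2 changes of -1.49 and -1.50 and ZFAS1 of -1.17 and -1.23. Those of C6orf48 were -1.51 and -1.11. None of these was called (adjusted p from 0.123 to 0.876). The 3 calls with shRARRES2_1 depended on single libraries and on the processing. Leaving out 1 library ended the call of GAS5 except for shRARRES2_1 replicate 1, shRARRES2_3 replicate 1 or shRARRES2_3 replicate 2 (9 of 12 fits), that of C6orf48 except for shRARRES2_3 replicate 1 or 2 or shGFP replicate 2 (9 of 12), and that of ZFAS1 except for shRARRES2_3 replicate 1 or 2 (10 of 12). The adjusted p went up to 0.254 for GAS5 and C6orf48 and 0.219 for ZFAS1, and edgeR gave 0.106, 0.106 and 0.0731. All 3 calls were also lost with a common total, a common protein-coding total, no filter on low values, shRARRES2_1 replicates 2 and 3 averaged, and without the pair of replicates 3, and those of GAS5 and C6orf48 with the replicate number as a block. C6orf48 was lost with a pseudocount of 0.25 as well. DESeq2 kept all 3 calls.

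Unlike NEAT1, GAS5 and C6orf48 had the highest value of the shRARRES2_1 group in replicate 1, at 112 and 115 CPM. Among 19 other long noncoding RNAs tested, 1 was called, ZFAS1 lower with shRARRES2_1, beside 0.0722% of all genes tested. ZFAS1 is in both lists, so this is the same call as among the host genes. The list median was -0.49, -0.16 and -0.32. NORAD, an abundant cytoplasmic RNA that binds Pumilio proteins, had 160.1, 389 and 406 CPM in shRARRES2_1 cells, 366, 282 and 369 CPM in shRARRES2_2 cells and 173, 659 and 352 CPM in shRARRES2_3 cells, against 458, 495 and 412 CPM in shGFP cells. Its lowest and highest libraries were the same as those of NEAT1 and it was not called. Of 10 small structured RNAs, 1 was tested and 0 called.

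**Figure D5:**
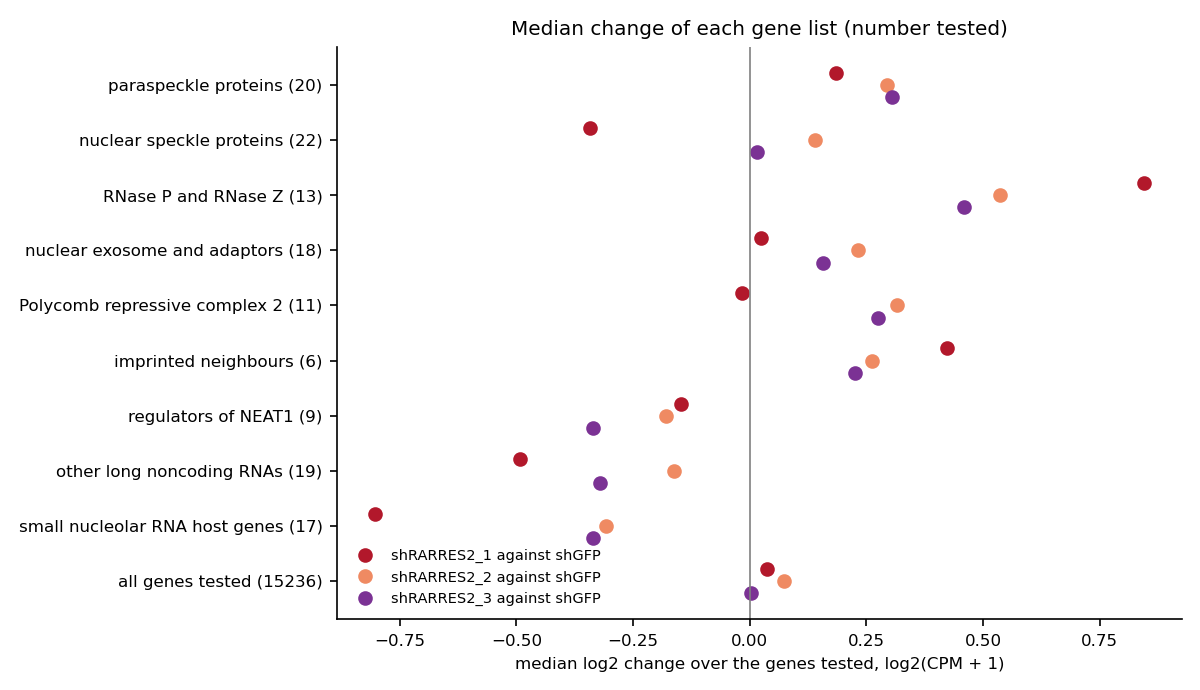
Median log2 change over the tested genes of each list with each hairpin against shGFP, with the median of all 15236 genes tested at the bottom. RNase P and RNase Z genes had medians of 0.46 to 0.84 and small nucleolar RNA host genes of -0.80 to -0.31.

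Over the log2 values of the 12 libraries, Pearson's r was 0.902 for NEAT1 with MALAT1, 0.918 for TUG1 with KCNQ1OT1, 0.876 for NEAT1 with TUG1 and 0.865 for NEAT1 with KCNQ1OT1. With OIP5-AS1 it was 0.618 for NEAT1 and 0.783 for MALAT1. Between NEAT1 and H19 it was -0.177. The 12 points share 4 groups and the pairs of libraries described above, and no p is given.

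Among 11131 genes with a mean of at least 5 CPM, those most like NEAT1 over the 12 libraries were the antisense gene AC074117.10 (r = 0.982), SLC25A36, a mitochondrial nucleotide carrier (r = 0.9805), and L3MBTL1, a chromatin reader (r = 0.979). SLC25A36 ranged over 51.1 to 337 CPM. MALAT1 was most like TMEM106B, a lysosomal membrane protein (r = 0.960), HOXD11 (r = 0.959) and INTS6, a subunit of the Integrator complex (r = 0.958). TUG1 was most like C5orf24 (r = 0.9752), ZNF84 (r = 0.973) and ZNF493 (r = 0.961). KCNQ1OT1 was most like the pseudogene CROCCP3 (r = 0.957), the chromatin factor KMT2E (r = 0.953) and the kinesin STARD9 (r = 0.949). OIP5-AS1 was most like PCNP (r = 0.981), C5orf22 (r = 0.969) and the kinase YES1 (r = 0.969). The best matches of MIAT (KCNK6, r = 0.855) and H19 (RNF20, r = 0.688) had lower values, and both RNAs had 39 reads or fewer in each library.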

How the data were processed

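RNA sequencing of 12 libraries of 786-O cells, 3 per group, was used. Per the submitters' processing notes, the authors' tools were STAR 2.5.2, Trim Galore 0.6.1, edgeR and CASAVA, and the build was hg38. The deposited signal values are CPM that the authors scaled by TMM, so columns do not sum to the same total. The smallest value above 0 in each library was taken as 1 read. All values were whole multiples of it within a relative tolerance of 1e-06 (100.0% of values), which gave the read counts used.

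Genes at 1 CPM or more in at least 3 libraries (15236 of 58381) were tested with limma 3.58.1 in R 4.3.3 on log2(CPM + 1), with 1 mean per group, a variance trend, and a threshold of 0.05 after Benjamini-Hochberg adjustment. All adjusted p-values are from this fit unless edgeR 4.0.16 or DESeq2 1.42.0 on the recovered reads is named. Shares of reads were compared by two-sided exact permutation (scipy 1.17.1). Gene classes and lengths came from GENCODE 29 (58261 IDs matched). The test was checked on simulated data with independent libraries. The simulation had no pairs of alike libraries, so the check does not cover those seen here. The 8 RNAs and the gene lists were chosen with earlier results of these data known. Named genes are the members, their neighbours, the 3 genes most like each (Pearson's r, mean of at least 5 CPM), and from each list up to 2 with the lowest p for the mean of the hairpins and 2 with the highest level. Not every gene that this rule allows is reported here.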

Additional observations from a re-analysis of the deposited data

How the results depend on the processing

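Counts of genes called moved with the processing, and 0 of the 7 RNAs was called under most of it. The exceptions are NEAT1 with shRARRES2_2 without either pair and OIP5-AS1 in DESeq2 and without shRARRES2_3 replicate 2. With shRARRES2_1 (26 genes) the count was 149 without either pair, 41 without the pair of first replicates, 4 without the pair of replicates 3, 497 in DESeq2, 3 in edgeR, 14 with a minimum of 5 CPM, 13 with no filter, 12 with a pseudocount of 0.25 and 6 with a common total, a common protein-coding total or replicates 2 and 3 of shRARRES2_1 averaged. With shRARRES2_2 (7 genes) it was 700 without either pair, 29 without the pair of second replicates, 347 in DESeq2, 3 in edgeR and 2 with a common total, a common protein-coding total, no filter or the averaged replicates. With shRARRES2_3 (1 gene) it was 0 without either pair, where 1 library remained, and 16 in DESeq2. For the mean of the hairpins (1 gene) it was 2 without either pair or the pair of second replicates and 132 in DESeq2. Among the hairpins (38 genes) it was 125 without either pair, 97 without the pair of first replicates, 3 without the pair of replicates 3, 590 in DESeq2 and 0 with the averaged replicates. Leaving out 1 library gave 3 to 195 genes with shRARRES2_1, 1 to 119 with shRARRES2_2, 1 with shRARRES2_3, 1 to 358 for the mean (358 without shRARRES2_3 replicate 2) and 0 to 92 among the hairpins. The difference in the long noncoding share ran from -0.690 to -0.471 points with 1 library left out. Without the pair of second replicates it was -0.600 points. Leaving out shRARRES2_3 replicate 2 fixed the exact p there at 0.0444. "Without either pair" means without the pairs of first and second replicates. The cause of these changes was not tested.

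With the replicate number as a block, 21, 10 and 1 genes passed with shRARRES2_1, shRARRES2_2 and shRARRES2_3, 1 for the mean and 53 among the hairpins; for the share of reads the blocked exact p was 0.0781. Over 18 pairs of same-numbered libraries of different groups, the correlation of deviations ran from -0.193 to 0.754 and exceeded 0.1 in 11, not in all; the labels name no source shared by a number. Of 12 libraries, 8 correlated best with a library of their own number. This count includes both libraries of the pair of first replicates and of the pair of second replicates. Deviations from the group mean sum to 0 within each group, so the matches are not independent. No chance level was computed, and whether the number marks a shared source was not tested.

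Values that changed sign had not been called. For TUG1 with shRARRES2_2 the log2 change was 0.0197 without either pair and without the pair of second replicates. It was 0.11 without the pair of replicates 3, where that of KCNQ1OT1 with shRARRES2_2 was 0.19, of MIAT with shRARRES2_3 -0.13, of H19 with shRARRES2_2 -0.13 and of OIP5-AS1 with shRARRES2_3 0.0121. For KCNQ1OT1 without either pair it was 0.53, 0.19 and 0.13 with shRARRES2_1, shRARRES2_2 and shRARRES2_3 and 0.28 for the mean, without the pair of first replicates 0.28 with shRARRES2_1, 0.19 with shRARRES2_3 and 0.14 for the mean, and without the pair of second replicates 0.19 with shRARRES2_2. For MIAT with shRARRES2_1 it was 0.34 without either pair, 0.12 without the first and 0.14 without the second, with shRARRES2_2 0.16 without either or the second, and for the mean 0.43, 0.12 and 0.22. For H19 with shRARRES2_1 it was 0.105 in DESeq2, 0.115 in edgeR, 0.0115 with a pseudocount of 5 and 0.0898 with the averaged replicates. H19 with shRARRES2_2 had -0.00848 with a common protein-coding total and -0.00196 with a common total, and without either pair it had -0.53 with shRARRES2_3 and -0.19 for the mean. OIP5-AS1 with shRARRES2_3 had 0.00619 in DESeq2, 0.00531 in edgeR, 0.0102 without either pair and 0.16 without the pair of first replicates. With 1 library left out, results that changed sign ran from -0.26 to 0.11 for TUG1 with shRARRES2_2, and for KCNQ1OT1 from -1.56 to 0.28, -0.39 to 0.19 and -1.43 to 0.19 with shRARRES2_1, shRARRES2_2 and shRARRES2_3. For MIAT they ran from -0.22 to 0.14, -0.24 to 0.16, -0.13 to 0.31 and, for the mean, -0.14 to 0.21, for H19 from -0.28 to 0.33 with shRARRES2_1 and -0.13 to 0.28 with shRARRES2_2, and for OIP5-AS1 with shRARRES2_3 from -0.21 to 0.16. A common protein-coding total moved the median of all genes by -0.08, -0.11 and -0.09. A minimum of 5 CPM left MIAT and H19 untested.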
